A study of Mus musculus with 2 samples.

Results

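ST2 is the receptor for the alarmin interleukin 33 and is encoded by Il1rl1. The cells described here are CD4 T cells with at least 1 Il1rl1 UMI (a unique transcript count) and no UMI of Foxp3 or Ikzf2, the genes of a pair of regulatory T cell transcription factors. They are called ST2 conventional cells. They numbered 135 of 12789 cells that passed the filter of the rule (at least 500 genes, at least 1000 UMIs, under 10% mitochondrial UMIs and at least 1 UMI of Trbc1 or Trbc2), with 59 of 3879 cells in library 1 and 76 of 8910 in library 2. They were set against 2486 CXCR6 effector cells (no Foxp3 and no Il1rl1 UMI, at least 1 of Cxcr6; 887 and 1599 cells) and against 158 ST2 Treg cells (at least 1 UMI each of Foxp3 and Il1rl1; 95 and 63 cells). The cells were chosen by their measured UMIs of Foxp3, Ikzf2 and Il1rl1, and the comparison classes by those of Foxp3, Il1rl1 and Cxcr6, so the levels of these 4 genes are given as a description with no test. The cell filter also used Trbc1 and Trbc2, for every class alike, and these were not withheld from the tests. The classes rest on transcripts only, since ST2 protein was not measured, and 3′ counts do not separate the membrane form of ST2 from its soluble form.

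The samples were CD4 T cells of visceral (VAT), subcutaneous (SAT) and brown (BAT) adipose tissue and of spleen from WT male C57BL/6J mice aged 8 weeks. Per the labels, cells positive for TCRb, CD3 and CD4 were sorted, the fat after digestion with collagenase II and the spleen after mechanical dissociation alone. Each of 2 libraries, 1 per experiment, pooled 8 samples marked with hashtag antibodies, which gave 4 hashed samples per tissue (replicates 1 and 2 in library 1, replicates 3 and 4 in library 2). The labels name no further allele or agent and do not say whether duplicates came from separate animals, so p-values here measure the spread between these samples and libraries, which may be technical.

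As background, interleukin 33 is released by stromal cells and, through ST2, acts on type 2 innate lymphoid cells, on type 2 helper T cells and on the regulatory T cells that gather in visceral fat. Type 2 helper cells depend on the transcription factor Gata3 and are known for the cytokines Il4, Il5 and Il13, and many helper cells that carry ST2 also express Pparg, a nuclear receptor that senses lipids. Type 1 helper cells use Tbx21, make Ifng and carry the chemokine receptor Cxcr3. Regulatory T cells of fat share Gata3, Pparg and ST2 with type 2 cells, which is why they form the second comparison.

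The promoters of Il1rl1, the gene that defines the cells, and of Ltb4r1, a receptor gene that was far higher in them than in CXCR6 effector cells, are shown because Gata3, whose protein is known to bind GATA motifs, was higher in them as well. Il1rl1 has a pair of annotated starts, an upstream one at chr1:40429320-40429569 and a downstream one at chr1:40439379-40439628, both on the plus strand. The window of Ltb4r1 is chr14:55765712-55765961 on the plus strand. Each window is the 250 bases before a start, from RefSeq on GRCm38.p6, and capitals mark each match to the motif (the letters GATAA or GATAG after an A or a T, on either strand).
Il1rl1 upstream start: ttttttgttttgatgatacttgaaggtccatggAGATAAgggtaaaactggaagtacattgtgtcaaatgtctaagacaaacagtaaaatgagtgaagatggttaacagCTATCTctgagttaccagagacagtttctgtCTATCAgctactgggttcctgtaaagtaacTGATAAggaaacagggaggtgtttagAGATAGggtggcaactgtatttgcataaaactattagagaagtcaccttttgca
Il1rl1 downstream start: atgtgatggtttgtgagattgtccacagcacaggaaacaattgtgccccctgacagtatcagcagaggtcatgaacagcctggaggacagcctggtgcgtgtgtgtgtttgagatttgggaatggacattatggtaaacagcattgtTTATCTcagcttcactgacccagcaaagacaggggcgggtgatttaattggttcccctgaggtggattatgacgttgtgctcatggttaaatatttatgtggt
Ltb4r1 start: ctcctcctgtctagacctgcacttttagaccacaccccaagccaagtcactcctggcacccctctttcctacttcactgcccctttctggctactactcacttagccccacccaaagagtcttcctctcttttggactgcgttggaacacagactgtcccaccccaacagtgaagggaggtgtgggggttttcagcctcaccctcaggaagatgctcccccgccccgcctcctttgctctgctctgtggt

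The upstream Il1rl1 window held 5 matches, between 54 and 217 bases before the start. The downstream window held 1 match, 103 bases before its start, and the Ltb4r1 window held 0. Among all 32851 starts of 27025 genes in the same table, 26.5% held at least 1 match in such a window and 0.0426%, that is 14 starts, held 5 or more. A match is a description of the letters and not a binding site, and the 3′ counts do not tell which Il1rl1 start was used.

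Depth and purity differed between the libraries. The deposited matrices held 4485 and 12239 barcodes with 29153747 and 43879975 gene UMIs, and ST2 conventional cells had a median of 8175 UMIs in library 1 and 5804.5 in library 2, against 6222 and 4530 in CXCR6 effector cells and 7239 and 5152 in ST2 Treg cells. Of the 8 barcodes found in both libraries, 0 were ST2 conventional cells. A set of 6 cells carried RNA of another lineage (at least 5 summed UMIs of 12 myeloid, fibroblast and B cell genes), namely 5 of 59 cells in library 1 and 1 of 76 in library 2. In library 1 these 5 cells held 28.0% of the class's UMIs, and a single cell of VAT replicate 2 held 18.4%, with 136931 UMIs, 690 of them Lyz2. In library 2 the 1 cell held 4.74%. Results on summed counts are given for all cells of the rule, and the overall counts, some list counts and some values also for lineage-filtered sums without such cells, a filter chosen after seeing the data.

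Before any comparison, the cells were checked for the marks of their name, of which Il1rl1 was fixed by the rule. Il1rl1 itself stood at 251 and 325 CPM (summed UMIs of the gene scaled to 1000000 UMIs of the class, library 1 and then library 2) in ST2 conventional cells, against 325 and 253 in ST2 Treg cells and 0 by the rule in CXCR6 effector cells. Of the 135 cells, 63 had exactly 1 Il1rl1 UMI (19 and 44), just inside the threshold, and 72 had 2 or more. Gata3, Ltb4r1 and Pparg transcripts were present in both libraries, while Il4 was near the level of CXCR6 effector cells. Mast cell and basophil genes were at 0 for 10 of 12 in library 1 and 11 of 12 in library 2, including Cpa3, Mcpt8 and Fcer1a. Of 12 genes of type 2 innate lymphoid cells 2 and 1 were at 0, Kit in both libraries, and their summed level was 936 and 1499.8 CPM (1275 and 1539.5 lineage-filtered), against 1246 and 1167 in CXCR6 effector cells and 1299 and 996 in ST2 Treg cells. Of the 5 of these genes that were tested, Gata3 was higher and Cd7 lower than in CXCR6 effector cells (Gata3, Klrg1 and Rora higher and Cd7 and Id2 lower lineage-filtered), and Id2 was higher and Klrg1 lower than in ST2 Treg cells (Rora lower as well lineage-filtered). Arg1, which such cells express, stood at 2.68 and 70.8 CPM. The summed level of 10 alpha-beta T cell genes was 4594 and 6393 CPM in ST2 conventional cells (6095 and 6497 lineage-filtered), against 7273 and 8231 in CXCR6 effector cells and 5502 and 6658 in ST2 Treg cells. Among these genes Trbc2 was also used by the cell filter of every class.

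Where the cells were found was compared over hashed samples. ST2 conventional cells made up on average 3.03% ± 1.31 of the CD4 T cells assigned to VAT samples (SD, n = 4), 1.03% ± 0.468 of those of SAT, 0.381% ± 0.412 of those of BAT and 0.156% ± 0.131 of those of spleen (n = 4 each). VAT replicates 1 to 4 held 16, 16, 11 and 24 of the cells, with shares of 3.31%, 4.34%, 1.20% and 3.27%. SAT replicates held 9, 3, 7 and 6 cells, and their shares were 1.71%, 0.901%, 0.847% and 0.656%. BAT held 0, 4, 4 and 1 cells and spleen 1, 1, 0 and 1, so that 67 of the 104 cells assigned to a sample came from VAT. The 0 cells of BAT replicate 1 and of spleen replicate 3 allow shares of up to 0.592% and 0.352%, for counting error only. Within each experiment both VAT samples lay above every sample of the other tissues.

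The VAT share exceeded that of SAT by 2.00 points, that of BAT by 2.65 and that of spleen by 2.87, and the SAT share exceeded that of spleen by 0.873. Each of these 4 differences gave a 2-sided exact permutation p of 0.0556, the smallest that permuting within experiments can give, and an adjusted p of 0.0833 over the 6 tissue pairs. The design therefore cannot pass a threshold of 0.05. SAT minus BAT was 0.648 points (exact p = 0.111, adjusted 0.133) and BAT minus spleen 0.225 points (exact p = 0.389, adjusted 0.389). Thinned to 1000 UMIs per cell, where a cell needs an Il1rl1 UMI among fewer, the shares were 1.21% in VAT, 0.435% in SAT, 0.146% in BAT and 0.204% in spleen. CXCR6 effector cells were spread otherwise, with 31.2% ± 6.05 of cells in VAT, 37.4% ± 5.96 in SAT, 7.99% ± 2.16 in BAT and 4.01% ± 0.610 in spleen (n = 4). ST2 Treg cells made up 3.60% ± 2.30 in VAT, 1.82% ± 1.66 in SAT, 0.503% ± 0.228 in BAT and 0.521% ± 0.482 in spleen (n = 4). The hashtag of SAT replicate 1 was weak, and a stricter assignment kept 39 of its 525 cells. Under that assignment the SAT share was 0.590% ± 0.507 (n = 4), against 0.123% ± 0.168 in spleen and 0.469% ± 0.435 in BAT (n = 4 each), a difference of 0.467 points from spleen (exact p = 0.222) and of 0.121 from BAT (exact p = 0.556).

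**Figure D1:**
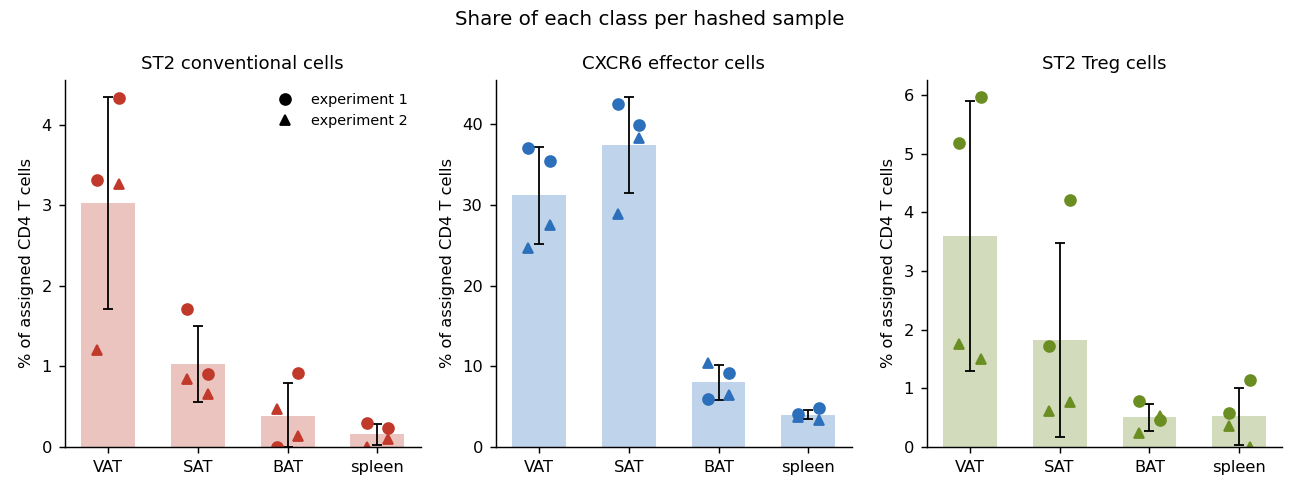
Share of assigned CD4 T cells (y axis, %) that were ST2 conventional cells (left), CXCR6 effector cells (middle) and ST2 Treg cells (right) in VAT, SAT, BAT and spleen. Points are hashed samples (circles experiment 1, triangles experiment 2), bars the mean and whiskers the SD of 4. ST2 conventional cells reached 1.20% to 4.34% in VAT samples and at most 0.293% in spleen samples.

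The first comparison asked how ST2 conventional cells differ from the larger population of CXCR6 effector cells that lack Foxp3 and Il1rl1 UMIs. ST2 conventional cells had more Gata3, Pparg, Ltb4r1, Ccr2 and Il2ra transcript, and less of most tested type 1 helper genes, including Ifng, Tbx21, Cxcr3, Ccl5 and Xcl1. With edgeR's quasi-likelihood test on counts summed per library and class, 451 of 7916 genes were called at an adjusted p under 0.05 (5.7%), 245 higher (3.09%) and 206 lower (2.6%). In lineage-filtered sums 488 of 7350 genes were called (6.64%), 233 higher (3.17%) and 255 lower (3.47%). Of the calls in all cells, 138 of the 245 higher (56.3%) and 186 of the 206 lower (90.3%) were also called, in the same direction, after that filter. Over the settings tried the count lay between 86 and 1027. The former was of 1464 genes tested, with cells thinned to 1 depth. The latter was of 21833, with no filter on low counts. The classes differed in tissue, since VAT gave 64.4% of assigned ST2 conventional cells and 37.1% of assigned CXCR6 effector cells. Values within VAT are given further on.

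Among 20 type 2 helper genes, 11 were abundant enough to test, 6 were higher and 1 was lower, with a median log2 fold change of 1.40 against -0.01 over all genes tested. Lineage-filtered, 7 of 10 were higher and 1 was lower, with a median of 1.82. Gata3, the master regulator of type 2 cells, had 268 and 385 CPM in ST2 conventional cells, against 143 and 105 in CXCR6 effector cells. Its log2 fold change was 1.40 ± 0.23 (standard error, SE; adjusted p = 0.00649), and it was higher in both libraries. Pparg, the lipid-sensing receptor, had 45.6 and 62.5 CPM, from 34 and 30 UMIs, against 0.585 and 1.57 CPM, a log2 fold change of 5.54 ± 0.43 (adjusted p = 0.000197). Rnf128, an E3 ubiquitin ligase, had 67.0 and 18.7 CPM against 2.49 and 2.65 (3.87 ± 0.63 on the log2 scale, adjusted p = 0.00669), and Cd200r1, an inhibitory receptor, had 79.1 and 54.2 CPM against 36.4 and 32.2 (0.97 ± 0.21, adjusted p = 0.0263). Cd200r1 was not called after the lineage filter, where Ccr4 and Ccr8, chemokine receptors of type 2 cells, were called instead. In all cells Ccr4 had 16.1 and 54.2 CPM against 17.0 and 12.2 and Ccr8 9.39 and 22.9 against 5.41 and 3.37, with log2 fold changes of 1.13 ± 0.46 and 1.76 ± 0.75 that did not pass.

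A pair of the called type 2 genes was uneven between libraries. Csf2, the cytokine GM-CSF, had 235 and 29.2 CPM in ST2 conventional cells, against 9.95 and 14.8 in CXCR6 effector cells (3.14 ± 0.67, adjusted p = 0.0245), and DESeq2 did not call it. Areg, the epidermal growth factor receptor ligand amphiregulin, had 12.1 and 187 CPM against 0.585 and 5.30 (4.81 ± 0.92, adjusted p = 0.0141), but 87 of its 90 UMIs in library 2 came from 1 cell. The lower gene was Maf, a transcription factor of several helper lineages, with 154 and 154 CPM against 387 and 250.3 (-1.04 ± 0.21, adjusted p = 0.0173).

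The type 2 cytokines themselves were scarce. Among the list's genes that were too low to test, Il17rb, a receptor for interleukin 25, had 4.02 and 22.9 CPM in ST2 conventional cells, against 1.17 and 1.08 in CXCR6 effector cells, Ptgdr2, the receptor CRTH2, had 0 UMIs, and Il3 had 0 in all classes. Il6, Epas1, Hpgds and Bhlhe41 stayed under 10 CPM in both classes. Il4 had 6.70 and 25.0 CPM in ST2 conventional cells, against 11.9 and 13.6 in CXCR6 effector cells, a log2 fold change of 0.16 ± 0.52 that did not pass (adjusted p = 0.935). Il5 and Il13 were too low to test, with 2 and 16 UMIs of Il5 and 3 and 38 UMIs of Il13 in ST2 conventional cells. Il5 had 2.68 and 33.3 CPM, against 0 and 0.482 in CXCR6 effector cells, and Il13 had 4.02 and 79.2 CPM against 0.293 and 5.18. At least 1 UMI of the 3 cytokines was found in 7 of 59 and 19 of 76 ST2 conventional cells (11.9%, exact 95% interval 4.91 to 22.9, and 25.0%, 15.8 to 36.3, for counting error only). In CXCR6 effector cells 29 of 887 (3.27%) and 41 of 1599 (2.56%) had such a UMI, in ST2 Treg cells 3 of 95 and 1 of 63, and in the remaining cells without Foxp3, Cxcr6 or Il1rl1 UMIs, which should mostly lack these cytokines, 0.314% and 0.284% at a median of 6046 and 4253 UMIs. Of the cytokine-positive ST2 conventional cells, 7 of 7 and 18 of 19 had a Gata3 UMI and the same numbers a Cxcr6 UMI. Among all ST2 conventional cells, 45 of 59 in library 1 had a Gata3 UMI, and 43 of 59 and 49 of 76 a Cxcr6 UMI. The cytokine-positive cells were also deeper, with a median of 8884 and 6845 UMIs against 8076 and 5471 in the others. A link between these genes was not tested. A single hashed sample, VAT replicate 4, supplied 12 of the 19 in library 2, and 1 cell held 18 of the 38 Il13 UMIs.

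The type 1 and cytotoxic program was lower as a group, with 12 of 16 tested genes lower, 0 higher, and a median log2 fold change of -2.33. Ifng, the main type 1 cytokine, had 41.6 and 18.7 CPM in ST2 conventional cells, against 251 and 269.7 in CXCR6 effector cells (-3.05 ± 0.25, adjusted p = 0.000235). Tbx21, which drives the lineage, had 29.5 and 6.25 CPM against 108 and 78.4 (-2.33 ± 0.31, adjusted p = 0.00271), and Cxcr3, the receptor for interferon-induced chemokines, 60.3 and 14.6 against 269 and 335 (-2.89 ± 0.37, adjusted p = 0.00224). Ccl5, a chemokine stored by effector and memory cells, was the most abundant, at 312 and 456 CPM against 2839 and 3485 (-3.07 ± 0.13, adjusted p = 4.00e-06). No ST2 conventional value of these 4 genes reached the lower of the CXCR6 effector values. These are called genes with 1 value per library and class, and the share over all genes was not computed. The chemokine Xcl1 fell by 3.77 on the log2 scale, the granule protein gene Nkg7 by 2.42 and the death receptor ligand gene Fasl by 2.51. Il12rb2, an interleukin 12 receptor chain, had 1 and 0 UMIs in ST2 conventional cells, against 133 and 164 in CXCR6 effector cells, and was called lower (adjusted p = 0.00784). Stat4, which carries the interleukin 12 signal, and Il18r1, the interleukin 18 receptor chain, fell by 0.97 and 1.15. Ifngas1, a non-coding RNA beside Ifng, had 0 UMIs in ST2 conventional cells of both libraries, against 16.8 and 18.8 CPM in CXCR6 effector cells.

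**Figure D2:**
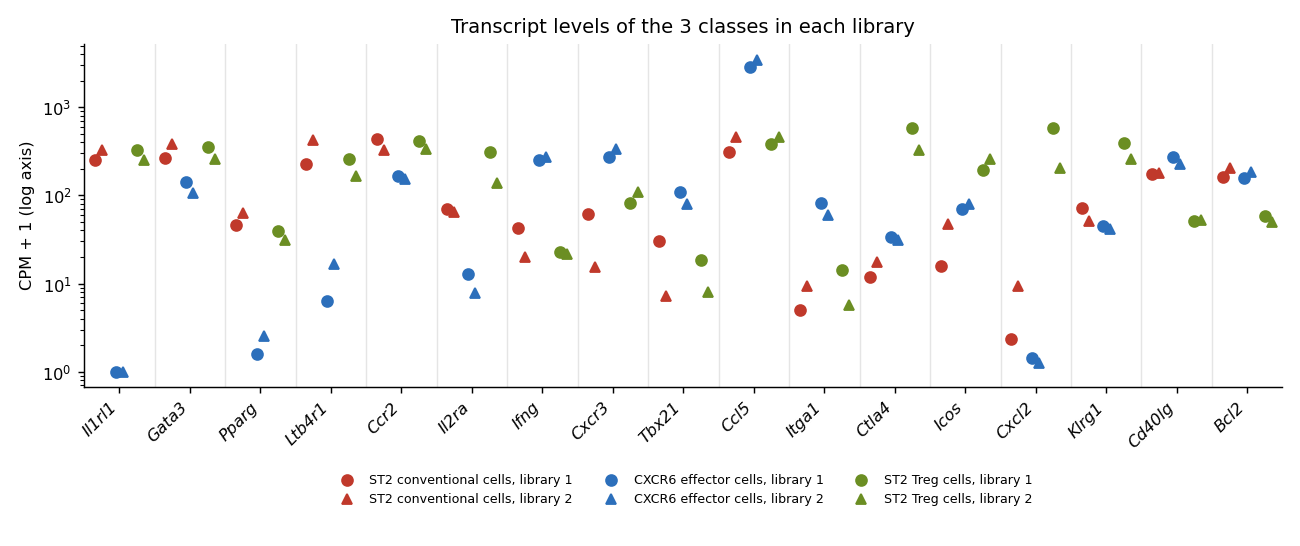
Levels of 17 genes (y axis, CPM + 1, log axis) in ST2 conventional cells (red), CXCR6 effector cells (blue) and ST2 Treg cells (green), with circles for library 1 and triangles for library 2. Gata3 stood at 268 and 385 CPM in ST2 conventional cells, 143 and 105 in CXCR6 effector cells and 358 and 260.1 in ST2 Treg cells.

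Receptors for chemoattractants, lipid mediators and cytokines divided the classes further. Ltb4r1, the receptor of the lipid chemoattractant leukotriene B4, had 227 and 423 CPM in ST2 conventional cells, from 169 and 203 UMIs, against 5.27 and 15.5 CPM in CXCR6 effector cells (4.94 ± 0.41, adjusted p = 0.000235). Ccr2, the receptor for Ccl2, had 441 and 325 CPM against 167 and 152 (1.24 ± 0.15, adjusted p = 0.00143). Genes of further lipid mediator receptors were chosen after their values were seen. Cysltr1, for cysteinyl leukotrienes, had 26.8 and 35.4 CPM against 1.76 and 3.85 (3.46 ± 0.50), and Ptgir, for prostacyclin, 52.3 and 22.9 against 3.51 and 4.58 (3.15 ± 0.50). Ramp1, a subunit of the receptor for the neuropeptide CGRP, had 84.5 and 244 CPM against 30.9 and 53.2 (1.87 ± 0.33). All 3 passed the same edgeR test, with adjusted p of 0.00355, 0.00590 and 0.00996, and were called after the lineage filter too.

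Of 14 tested chains of alarmin and cytokine receptors, 3 were higher and 3 lower, with a median of 0.11. Il2ra, the high-affinity interleukin 2 receptor chain CD25, had 68.4 and 64.6 CPM in ST2 conventional cells, against 11.9 and 6.86 in CXCR6 effector cells (2.80 ± 0.28, adjusted p = 0.000642). Il9r and Il7r, the receptors for interleukins 9 and 7, had log2 fold changes of 1.56 ± 0.39 and 0.54 ± 0.13. Il2rb, the chain that interleukins 2 and 15 share, had 117 and 89.6 CPM against 378 and 329 and fell by 1.79. Il21r and Il18r1 fell by 1.48 and 1.15. Among 11 costimulatory and inhibitory receptors Tnfrsf4, the receptor OX40, had 63.0 and 146 CPM against 37.2 and 48.5 and was higher (1.19 ± 0.21). Icos, Cd27 and Cd226 were lower, Cd27 and Cd226 by 1.13 and 1.29 on the log2 scale and Icos with 14.8 and 45.8 CPM against 68.3 and 78.8 (-1.42 ± 0.29, adjusted p = 0.0210).

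Tissue and metabolic genes were mixed. In the list of 28 migration and tissue effector genes 8 were higher and 3 lower, with a median of 0.29 (9 and 6 of 27 lineage-filtered). The lower ones included Itga1, the collagen-binding integrin CD49a that marks tissue-resident cells, with 4.02 and 8.33 CPM in ST2 conventional cells, against 81.3 and 59.4 in CXCR6 effector cells (-3.66 ± 0.39, adjusted p = 0.000898). The others were Itgb1 and Itgal, which fell by 0.90 and 0.78. Vim and S100a4, which effector cells express, were higher by 1.42 and 0.67. Of 12 tested lipid genes 3 were higher, with a median of 0.56. They were the lipid droplet coat gene Plin2 (186 and 112 CPM against 23.4 and 38.4, 2.24 ± 0.34), the fatty acid carrier gene Fabp5 (1.91 ± 0.33, 0.88 ± 0.22 lineage-filtered) and Cd36, a fatty acid receptor whose 201 and 0 CPM against 10.5 and 0.964 rested on library 1, and which was too low to test without the lineage cells. Tnfsf11, the ligand RANKL, had 65.7 and 102 CPM against 16.1 and 14.8 (2.39 ± 0.24), and Furin, a proprotein convertase, 197 and 146 against 61.7 and 37.7 (1.78 ± 0.19). Of 20 activation and TNF-family ligand genes 19 were tested, with 2 higher, 2 lower and a median of -0.50. The higher ones were Tnfsf11 and Egr1, a gene induced by receptor signals (0.99 ± 0.16), and the lower ones Tnf and Ltb, the genes of tumour necrosis factor and lymphotoxin beta, which fell by 1.06 and 0.56.

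The extremes of the comparison held several genes with little known in T cells. Plxdc2, a plexin domain gene, had 24 and 13 UMIs in ST2 conventional cells, against 2 and 1 in the larger CXCR6 effector sums, that is 32.2 and 27.1 CPM against 0.293 and 0.120. Dach2, a transcription factor gene, had 12 and 9 UMIs against 1 and 1, and Ccdc184 13 and 9 against 1 and 1. The amino acid transporter gene Slc7a8 had 15 and 6 UMIs against 0 and 0, and was too low to test after the lineage filter. The first 3 passed the test in both sets of sums. The platelet-activating factor receptor gene Ptafr (85.8 and 12.5 CPM against 0.146 and 0.602), Cd300c2 (52.3 and 2.08 against 0.146 and 0.361) and Sirpa (59.0 and 2.08 against 0.293 and 0.361), which myeloid cells express, were too low to test once the lineage cells were left out. At the lower end Gem, a small GTPase gene, had 6.70 and 6.25 CPM against 60.3 and 58.7 (-3.22 ± 0.39), and Siglec1 4.02 and 0 against 39.4 and 15.1 (-3.60 ± 0.53). Samd3 had 0 and 1 UMIs against 109 and 137, and Klrb1c, the killer receptor NK1.1, 1 and 1 against 83 and 219, and both were called lower.

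Treg-associated genes were mixed against CXCR6 effector cells. Of 14 tested Treg genes 4 were higher (Il2ra, Tnfrsf4, Capg and Ebi3) and 2 lower (Icos and Entpd1), with a median of 0.03. Ctla4 had 10.7 and 16.7 CPM in ST2 conventional cells, against 32.6 and 30.1 in CXCR6 effector cells. Its log2 fold change of -1.31 ± 0.37 did not pass (adjusted p = 0.0780). With Ikzf2 ignored in the rule, the log2 fold change was 0.92 and passed the same edgeR test (adjusted p = 0.0455). Of 18 tested adipose Treg genes 7 were higher and 1 lower, with a median of 1.32 (9 and 2 of 17 lineage-filtered, with a median of 1.34). Beside Gata3, Pparg, Ltb4r1, Ccr2, Areg and Cd36 this list held Pcsk1, a proprotein convertase, at 16.1 and 6.25 CPM against 0.439 and 0.241 (4.88 ± 0.73). Prdm1, a transcription factor of effector Treg cells and plasma cells, was the lower one (-1.52 ± 0.37).

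Genes of other lineages moved with this comparison in all cells of the rule. All 8 tested myeloid genes were higher, with a median of 4.67. Their summed level over 10 genes was 4888 and 541.6 CPM in ST2 conventional cells, against 177 and 173 in CXCR6 effector cells. Without the lineage cells it was 151 and 245 CPM against 143 and 139, and 0 of the 2 myeloid genes still tested were called. Lyz2, the lysozyme of myeloid cells, had 1636 and 10.4 CPM against 6.44 and 7.47. Fibroblast genes summed to 1926 and 45.8 CPM against 31.2 and 30.1, and to 52.1 and 45.9 against 30.8 and 29.0 without these cells. Of 10 alpha-beta T cell genes 4 (Lck, Trbc2, Trac and Cd3d) were lower, by 0.65 to 0.86 on the log2 scale, and their fold changes were -0.68 to -0.47 after the filter. Trbc2 was also used by the cell filter of every class, so its value is a description only. Of 12 innate-like T and NK cell genes 6 were tested, with Tyrobp higher (603 and 6.25 CPM against 5.85 and 14.7, higher in library 1 alone) and Cd160 and Klrb1c lower. The list's summed level was 1106 and 72.9 CPM against 135 and 315, or 61.4 and 76.5 against 135 and 314 without the lineage cells.

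The second comparison asked what separates ST2 conventional cells from the Foxp3-positive cells that also carry ST2. ST2 conventional cells had less Ctla4, Icos, Tnfrsf9, Itgae and Klrg1 than ST2 Treg cells, and more Il2, Cd40lg and Bcl2. Gata3, Pparg, Ltb4r1 and Ccr2 were not called. The fit called 224 of 7916 genes (2.83%), 73 higher (0.922%) and 151 lower (1.91%), and in lineage-filtered sums 461 of 7350 (6.27%), 188 higher (2.56%) and 273 lower (3.71%). Of the calls in all cells, 55 of 73 higher (75.3%) and 150 of 151 lower (99.3%) were also called after the filter. Counts over the settings tried lay between 57 and 611. The former was of 7283 genes tested, without cells that had an Il2ra or Ctla4 UMI. The latter was of 21833, with no filter on low counts. The fit with no library term as a block called 131 of 7916. Both comparisons use the same sums of ST2 conventional cells. VAT gave 56.5% of assigned ST2 Treg cells, and the 10 myeloid genes summed to 4888 and 541.6 CPM in ST2 conventional cells, against 776 and 759 in ST2 Treg cells (151 and 245 against 311 and 253 lineage-filtered).

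Of 14 tested Treg genes 10 were lower and 0 higher, with a median log2 fold change of -2.04 against 0.01 over all genes. In lineage-filtered sums 13 of the 14 were lower, with a median of -2.02. Ctla4, the inhibitory receptor central to Treg function, had 10.7 and 16.7 CPM in ST2 conventional cells (8 UMIs in each library), against 585 and 327 in ST2 Treg cells (-5.10 ± 0.32, adjusted p = 0.000162). Icos, a costimulatory receptor, had 14.8 and 45.8 CPM against 195 and 260.1 (-2.99 ± 0.29, adjusted p = 0.000848), and Tnfrsf9, the receptor 4-1BB, 9.39 and 8.33 against 106 and 90.6 (-3.44 ± 0.33, adjusted p = 0.000848). Il2ra lay between both comparators, at 68.4 and 64.6 CPM against 307 and 137 (-1.71 ± 0.25, adjusted p = 0.00724). Tnfrsf4 and Tnfrsf18, the receptors OX40 and GITR, fell by 2.39 and 1.63. Frmd5 had 1 and 0 UMIs against 103 and 31 and was called lower (adjusted p = 0.000848). Swap70, Nrp1 and Izumo1r completed the 10, with log2 fold changes of -2.13 ± 0.41, -1.48 ± 0.26 and -1.96 ± 0.39. For none of the first 7 genes did the values of the classes overlap. This is a description of called genes with 1 value per library, and the share over all genes was not computed.

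Genes known from Treg cells of fat divided in 2 directions. Of 18 tested adipose Treg genes 7 were lower and 2 higher, with a median of -1.75, and of 17 in lineage-filtered sums 9 were lower and 1 higher, with a median of -1.64. Cxcl2, a neutrophil chemokine, had 1.34 and 8.33 CPM in ST2 conventional cells, against 581 and 202 in ST2 Treg cells (-6.60 ± 0.47, adjusted p = 0.000176). Klrg1, an inhibitory receptor of terminally differentiated cells, had 71.1 and 50.0 CPM against 394 and 260.1 (-2.40 ± 0.20, adjusted p = 0.000614), and the chemokine receptor Ccr3 9.39 and 4.17 against 56.8 and 74.3 (-3.10 ± 0.48, adjusted p = 0.00931). The chemokine receptor gene Ccr1 and the transcription factor genes Prdm1, Batf and Irf4 fell by 2.88, 2.40, 1.74 and 2.36. The higher genes were Id2 and Cd36, and Cd36 had 201 and 0 CPM against 20.7 and 9.29, higher in library 1 alone. Outside this list, Itgae, the integrin chain CD103, had 1 and 0 UMIs against 40 and 15 (adjusted p = 0.0259), and Nrn1, which encodes neuritin, 1 and 1 UMIs against 68 and 32 (adjusted p = 0.000848). Rln3, a relaxin gene, had 6.70 and 0 CPM against 59.0 and 67.3 (-3.91 ± 0.65), and Siglec1 4.02 and 0 against 41.5 and 18.6 (-3.70 ± 0.59). The chemokine Ccl12 had 0 and 0 UMIs against 21 and 40 and was too low to test after the lineage filter. Il10, an anti-inflammatory cytokine, was too low to test, with 0 and 1 UMIs in ST2 conventional cells, against 77 and 4 in ST2 Treg cells.

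Of the genes that set ST2 conventional cells apart from CXCR6 effector cells, Gata3, Ltb4r1, Pparg and Ccr2 did not pass here. Others did, among them Il2ra, Tnfrsf4, Icos, Maf and Furin. Gata3 had 268 and 385 CPM in ST2 conventional cells, against 358 and 260.1 in ST2 Treg cells, a log2 fold change of 0.10 ± 0.23 (adjusted p = 0.896). Ltb4r1 had 227 and 423 CPM against 257 and 167 (0.47 ± 0.37, adjusted p = 0.595), Pparg 45.6 and 62.5 against 38.2 and 30.2 (0.59 ± 0.37, adjusted p = 0.508) and Ccr2 441 and 325 against 412 and 332 (0.07 ± 0.15, adjusted p = 0.889). The libraries ranked the classes in opposite ways for Gata3, Ltb4r1 and Ccr2 in these sums. In lineage-filtered sums Gata3 and Ltb4r1 were higher in ST2 conventional cells of both libraries, with 372 and 400.2 CPM of Gata3 against 362 and 276 and 303 and 439.5 CPM of Ltb4r1 against 265 and 184, and again neither passed (0.28 ± 0.14, adjusted p = 0.307, and 0.61 ± 0.22, adjusted p = 0.132). For Ccr2 the libraries again ranked the classes in opposite ways, with 489.6 and 335 CPM against 422 and 350.2. Missing the threshold does not show that these levels are equal. Areg had 12.1 and 187 CPM against 303 and 160.2 (-1.78 ± 0.77, adjusted p = 0.301). In library 2, 87 of its 90 UMIs in ST2 conventional cells came from 1 cell. Within VAT it was called lower, as given further on.

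Of 20 type 2 genes 11 were tested against ST2 Treg cells, with 0 higher and Maf lower, at 154 and 154 CPM against 581 and 307 (-1.46 ± 0.21). Il4 had 6.70 and 25.0 CPM against 2.18 and 0 (3.19 ± 1.03, adjusted p = 0.158), and Csf2 235 and 29.2 against 31.7 and 0 (2.81 ± 0.79, adjusted p = 0.112). In lineage-filtered sums 10 were tested, and Csf2 was higher (3.11 ± 0.62, adjusted p = 0.0026) while Maf, Nfil3 and Cd200r1 were lower, with a median of -0.10. Of 16 tested type 1 and cytotoxic genes Ly6c2 was higher and Gzmb, the protease granzyme B, lower, with 9.39 and 45.8 CPM against 99.3 and 448 (-3.22 ± 0.35). Of 6 tested follicular helper genes 4 were lower, with a median of -1.55, among them Tox, at 36.2 and 33.3 CPM against 133 and 88.2 (-1.67 ± 0.23).

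Fewer genes were higher than in ST2 Treg cells. Il2, the growth factor of which Treg cells make little, had 56.3 and 45.8 CPM in ST2 conventional cells, against 7.64 and 11.6 in ST2 Treg cells (2.54 ± 0.36, adjusted p = 0.00658). Cd40lg, the helper ligand for B cells and myeloid cells, had 174 and 177 CPM against 50.2 and 51.1 (1.83 ± 0.19, adjusted p = 0.00142). Bcl2, which protects cells from apoptosis and was chosen after its value was seen, had 159.6 and 206 CPM against 57.9 and 48.8 (1.74 ± 0.21, adjusted p = 0.00276). Tcf7 and Dapl1, which mark naive and memory cells, rose by 0.99 ± 0.19 and 2.55 ± 0.48. Id2, an inhibitor of E proteins, rose by 1.12 ± 0.20. The potassium channel gene Kcnk5 had 23 and 13 UMIs against 0 and 1 (adjusted p = 0.00910). Plac8 had 75.1 and 45.8 CPM against 5.46 and 0 (4.08 ± 0.68), the polarity gene Pard3 36.2 and 52.1 against 4.37 and 0 (3.87 ± 0.73) and Prxl2a 77.8 and 58.3 against 3.28 and 13.9 (3.39 ± 0.52). Plxdc2 had no UMI in ST2 Treg cells of either library. Gas7, Sparc and H2-Aa were called higher as well, with 92.5 and 4.17, 366 and 2.08 and 455 and 29.2 CPM in ST2 conventional cells, against 2.18 and 2.32, 24.0 and 0 and 42.6 and 2.32, but were too low to test without the lineage cells. Tmem176a and Tmem176b, ion channel genes of the type 17 list, were called higher in both comparisons, by 1.83 ± 0.20 and 1.86 ± 0.22 over CXCR6 effector cells and by 1.43 ± 0.25 and 1.54 ± 0.27 over ST2 Treg cells. The other type 17 gene that passed, Ccr6, was lower than in ST2 Treg cells, at 0 and 1 UMIs against 16 and 16 (adjusted p = 0.0281), and Rora was lower as well in lineage-filtered sums (-0.74 ± 0.16). Furin was higher in both comparisons as well, here by 1.44 ± 0.22.

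Immediate early genes, which respond to activation and to tissue digestion, were lower in 5 of 16 cases and higher in 0 against ST2 Treg cells, with a median of -0.54 (6 and 0 lineage-filtered). Zfp36, Dusp1, Jund, Fos and Junb fell by 1.21, 1.03, 0.83, 0.78 and 0.62. Jund had 1121 and 1299.9 CPM in ST2 conventional cells, against 2261 and 2139 in ST2 Treg cells. Nr4a1, induced by T cell receptor signals, had 76.4 and 43.7 CPM against 290.4 and 109 (-1.69 ± 0.22). Against CXCR6 effector cells 2 of the 16 genes were higher and 0 lower, with a median of 0.03 (4 and 0 lineage-filtered). Whether digestion contributed to these differences was not tested.

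**Figure D3:**
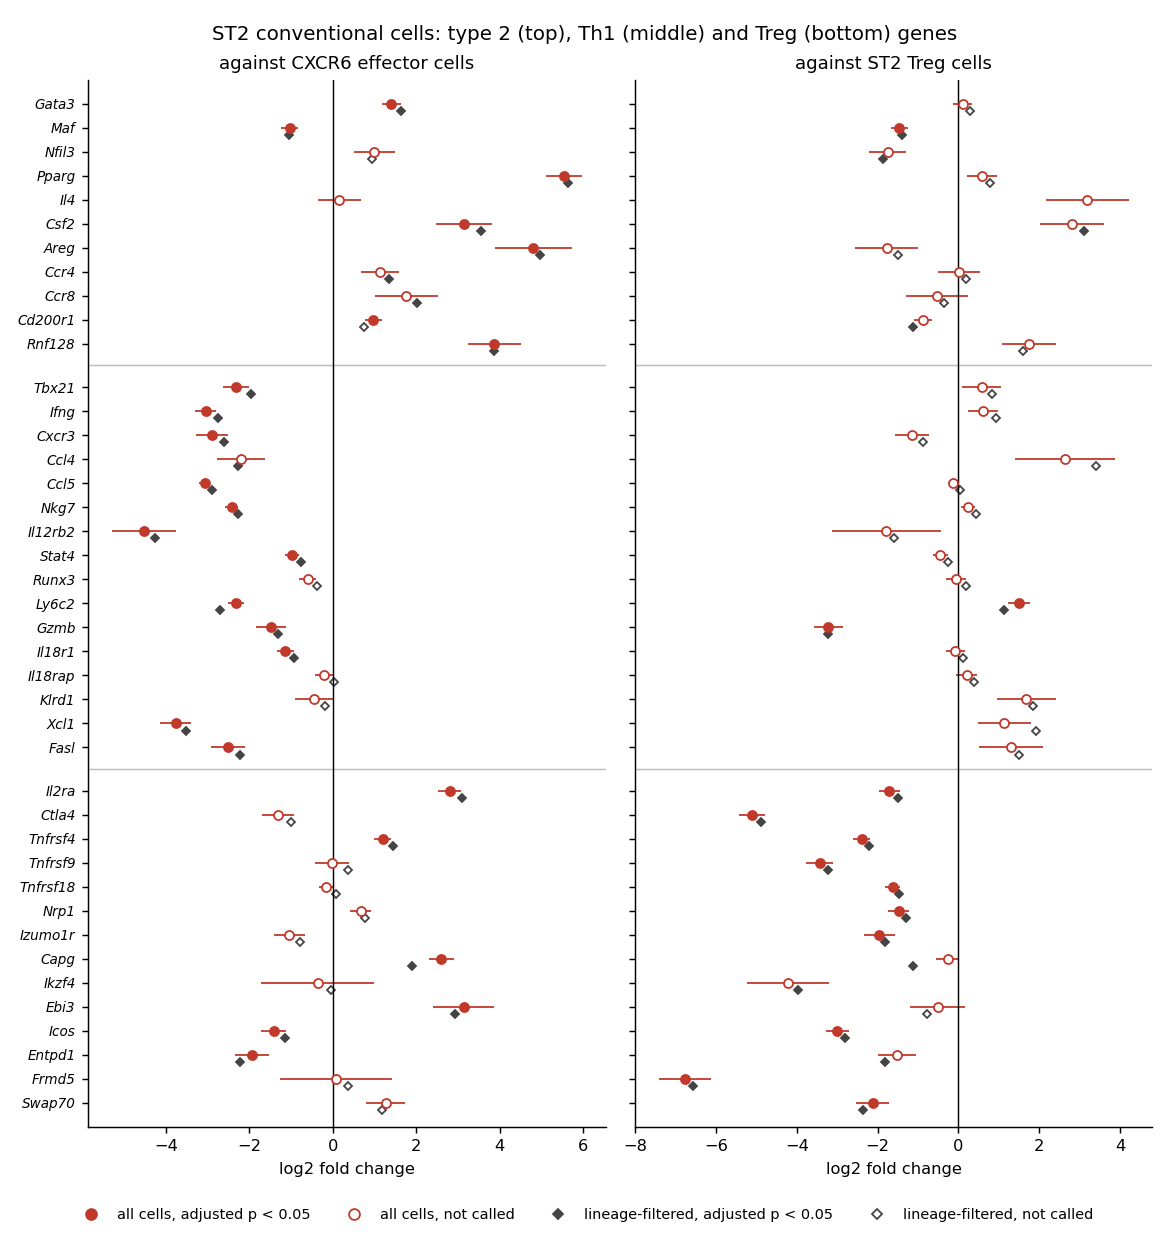
Log2 fold changes (x axis) of ST2 conventional cells against CXCR6 effector cells (left) and against ST2 Treg cells (right) for the tested type 2 (top), type 1 and cytotoxic (middle) and Treg (bottom) genes. Circles with SE bars use all cells of the rule, diamonds the lineage-filtered sums, and filled symbols passed an adjusted p of 0.05. Of the type 1 genes 12 of 16 were lower on the left, and of the Treg genes 10 of 14 were lower on the right.

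Comparing the classes inside VAT takes the tissue out of the contrast and uses the hashed samples as the unit. The 4 VAT samples gave sums of 16, 16, 11 and 24 ST2 conventional cells, 179, 131, 225 and 202 CXCR6 effector cells and 25, 22, 16 and 11 ST2 Treg cells. With the hashed sample as a block, edgeR called 188 of 6158 genes against CXCR6 effector cells (3.05%), 85 higher (1.38%) and 103 lower (1.67%), and 65 of 2201 against ST2 Treg cells (2.95%), 7 higher (0.318%) and 58 lower (2.64%). Of the type 1 genes, 11 of 14 tested were lower than in CXCR6 effector cells. Of the 16 ST2 conventional cells of VAT replicate 2, 3 carried RNA of another lineage, and without them its UMIs numbered 104662 in place of 267127. The fits within VAT keep these cells.

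Gata3 had 469, 116, 415 and 561 CPM in ST2 conventional cells of VAT replicates 1 to 4, against 135, 155, 111 and 122 in CXCR6 effector cells, a log2 fold change of 1.42 ± 0.33, adjusted p = 0.0338. Gata3 was lower in replicate 2 alone, and without lineage cells replicate 2 had 296 CPM in ST2 conventional cells, against 158 in CXCR6 effector cells, so that Gata3 was then higher in 4 of 4 replicates. Ltb4r1 had 429.7, 109, 400.1 and 738 CPM against 9.32, 5.45, 20.4 and 45.3, with no overlap (4.48 ± 0.30, adjusted p = 4.00e-06), and Pparg 48.8, 48.7, 108 and 69.3 against 0, 0, 1.70 and 4.82 (5.28 ± 0.61, adjusted p = 0.000430). Ccr2 had 562, 352, 477 and 511 CPM against 265, 153, 181 and 196 (1.27 ± 0.19, adjusted p = 0.00343). Among the lower genes, Ccl5 had 356, 149.7, 539 and 31.5 CPM against 3309, 3765, 4092 and 3744 (-4.13 ± 0.42, adjusted p = 0.000161) and Cxcr3 73.2, 33.7, 15.4 and 0 against 317, 311, 365 and 415 (-3.34 ± 0.47, adjusted p = 0.00144). Ifng had 63.5, 3.74, 15.4 and 6.30 CPM against 229.8, 267, 316 and 165 (-3.42 ± 0.47, adjusted p = 0.00126). Klrg1, not called over all tissues in all cells of the rule, had 63.5, 59.9, 61.6 and 113 CPM against 21.7, 29.4, 29.7 and 24.1 and was higher within VAT (1.53 ± 0.32, adjusted p = 0.0183).

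Set against ST2 Treg cells of the same VAT samples, Ctla4 had 19.5, 0, 15.4 and 6.30 CPM, against 801, 861, 327 and 329 in ST2 Treg cells (-6.04 ± 0.53, adjusted p = 0.000870), and Icos 19.5, 7.49, 15.4 and 25.2 CPM against 183, 207, 245 and 308 (-3.73 ± 0.34, adjusted p = 0.000870). Klrg1 lay far below the ST2 Treg values of 408, 534, 305 and 534 CPM (-2.60 ± 0.27, adjusted p = 0.00115). Bcl2 was higher in each of the 4 samples, with 195, 131, 138 and 321 CPM against 32.1, 40.0, 7.44 and 41.1 (2.58 ± 0.37, adjusted p = 0.00528). Gata3 did not pass within VAT, with 316, 620.5, 402 and 288 CPM in ST2 Treg cells (-0.16 ± 0.46, adjusted p = 0.885). Areg, not called over all tissues, had 43.9, 0, 0 and 6.30 CPM against 298, 754, 216 and 288 and was called lower within VAT. Csf2 had 625, 7.49, 30.8 and 56.7 CPM in ST2 conventional cells, 0 in every ST2 Treg sample and 5.43, 5.45, 17.8 and 0 CPM in CXCR6 effector cells, and VAT replicate 1 stood far above the others.

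**Figure D4:**
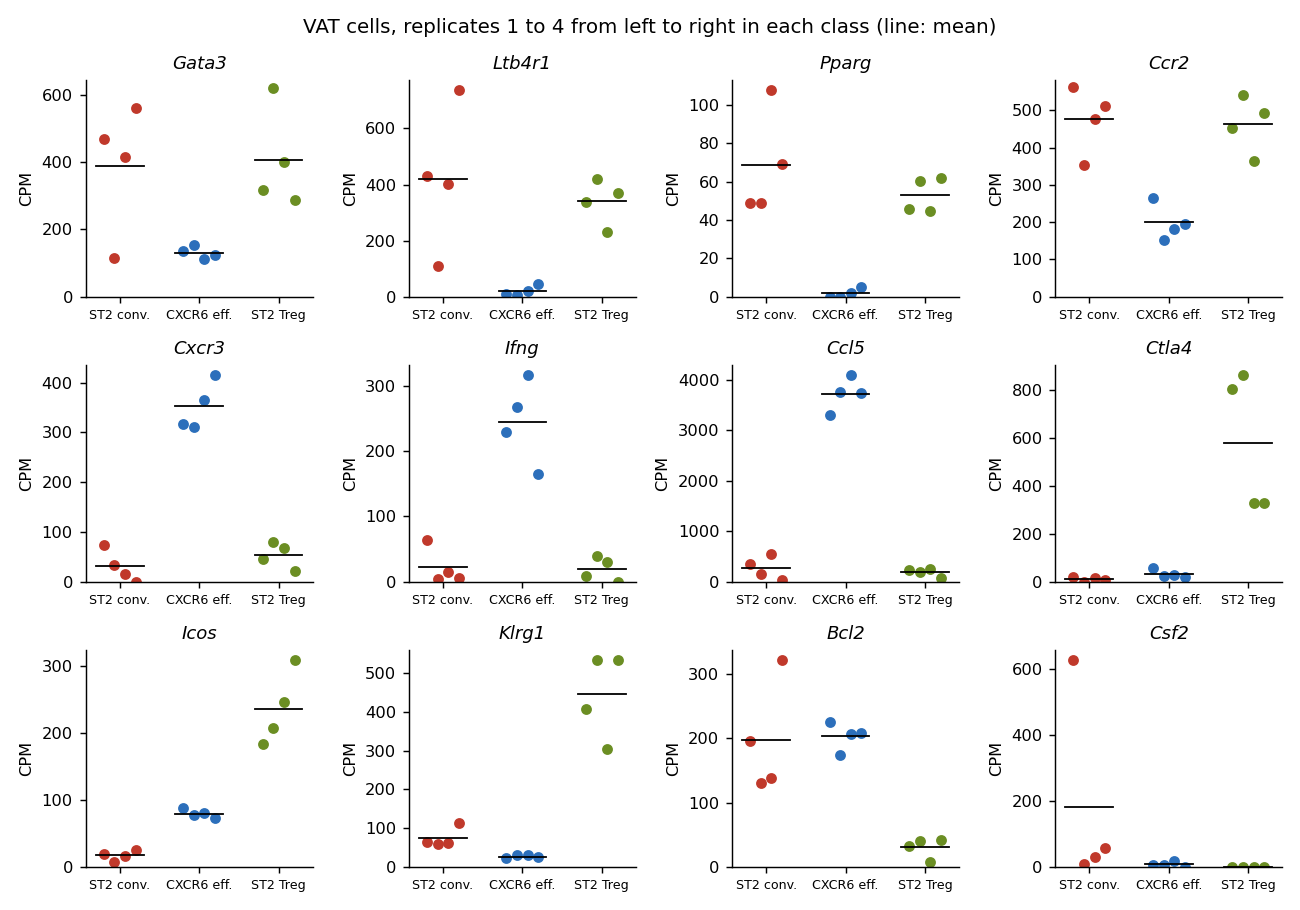
CPM (y axis) of 12 genes in VAT, with replicates 1 to 4 from left to right and the mean as a line, in ST2 conventional cells (red), CXCR6 effector cells (blue) and ST2 Treg cells (green). Ccl5 reached at most 539 CPM in ST2 conventional cells, against at least 3309 in CXCR6 effector cells.

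The cells were not uniform. Among ST2 conventional cells, 92 of 135 had a Cxcr6 UMI (43 and 49) and 43 had none (16 and 27). After the lineage filter, which removed 5 of the 16 and 1 of the 49 cells, Gata3 stood at 400.1 and 458 CPM in those with Cxcr6, against 234 and 179 in those without. Ltb4r1 was at 322 and 494 CPM against 212 and 231, and Ccr2 at 516 and 378 against 356 and 168. Ccr7, the lymph node homing receptor of naive and central memory cells, ran the other way, at 17.9 and 33.1 CPM against 145 and 168. The cells without Cxcr6 were shallower, with a median of 6765 and 3131 UMIs against 8175 and 6359, so a missed Cxcr6 UMI and a lack of Cxcr6 transcript cannot be told apart. These values are descriptions, since cells of a library are not replicates. ST2 conventional cells with a Cxcr6 UMI alone were also set against CXCR6 effector cells, which all have such a UMI. In this alternative, chosen after seeing the data, 557 of 7305 genes were called.

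**Figure D5:**
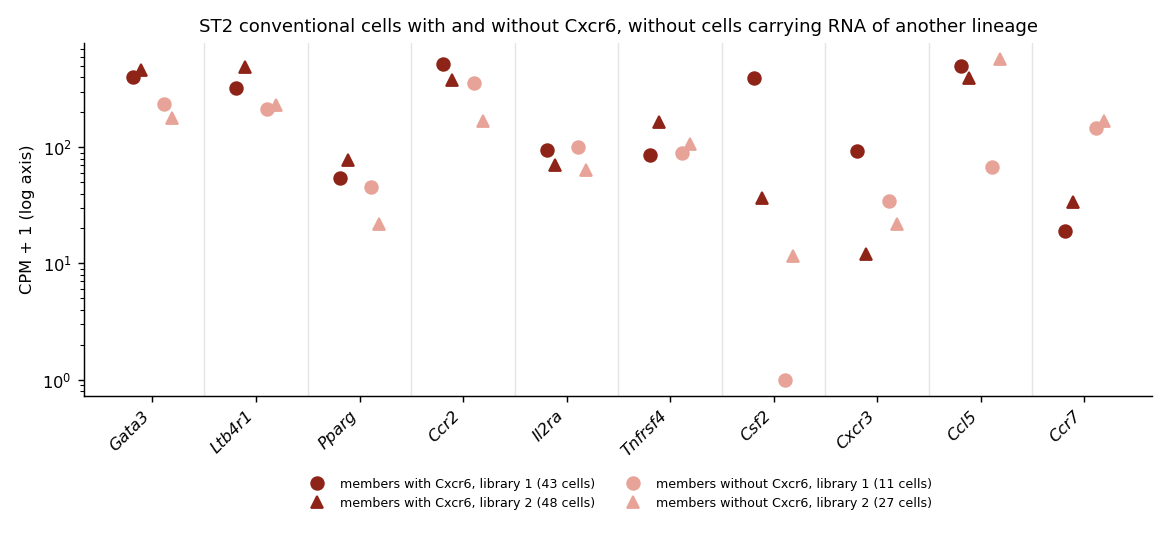
Levels (y axis, CPM + 1, log axis) of 10 genes in ST2 conventional cells with (dark) and without (light) a Cxcr6 UMI, lineage-filtered, with circles for library 1 and triangles for library 2. Gata3, Ltb4r1, Pparg and Ccr2 were higher and Ccr7 lower in cells with Cxcr6 in both libraries.

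Levels also differed with the number of Il1rl1 UMIs. Cells with 2 or more Il1rl1 UMIs had 328 and 460 CPM of Gata3, against 101 and 301 in cells with exactly 1, and 255 and 220 CPM of Ccl5 against 471 and 723. Of the 135 cells, 26 had no UMI of Gata3, Ltb4r1, Pparg or Ccr2 (8 and 18), and 26 had all 4 (12 and 14). Both VAT and SAT cells carried these genes. Gata3 stood at 269 and 519 CPM in VAT and 478 and 420 in SAT, and Ltb4r1 at 248 and 639 in VAT and 373 and 230.1 in SAT. The levels in this paragraph are for all cells of the rule, and the VAT sum of library 1 includes lineage cells. Without lineage cells, VAT replicates 1 and 2 of that library had 469 and 296 CPM of Gata3 and 430 and 248 of Ltb4r1. In BAT and spleen, where 6 cells per library were assigned, Ltb4r1 was at 0 and 30.4 CPM and Pparg at 0 in both.

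Cells just outside the rule show what its Ikzf2 term removed. A further 65 cells (26 and 39) had Il1rl1 and Ikzf2 UMIs and no Foxp3 UMI. Their Ctla4 stood at 241 and 131 CPM, against 10.7 and 16.7 in ST2 conventional cells, and their Icos at 112 and 131 CPM against 14.8 and 45.8. Both lay below the ST2 Treg values. Gata3, at 315 and 301 CPM in these cells, lay within the 268 and 385 CPM of ST2 conventional cells. With these cells counted as members, 112 of 8268 genes were called against ST2 Treg cells instead of 224 of 7916.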

How the data were processed

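Gene UMI counts and hashtag UMI counts are raw and unnormalized, as the authors deposited them, produced with Cell Ranger 6.1.0 per the file headers. The submitters' processing notes also name bcl2fastq, Seurat and mm10. Gene locations came from GENCODE vM21, in which 54349 of 55487 gene IDs matched. Per the labels, libraries were 10x 3′ and each pooled 8 hashed samples. Hashtag features were matched to the labelled antibodies by their number, and the hashtag model was revised several times after inspecting its calls. It assigned 3428 and 6825 cells and marked 9.64% and 17.5% as multiplets. It left 64 and 133 cells unresolved and called 13 and 390 negative for every hashtag. Multiplets, 6 and 16 of the ST2 conventional cells, stayed in the class sums and were removed in an alternative. The members and gene lists were chosen with earlier results of these data known. Counts were summed per library and class and tested with edgeR 4.0.16 (R 4.3.3; quasi-likelihood test, TMM scaling, minimum count of 10 in filterByExpr), 3 classes in 1 fit of 6 sums with the library as a block, which left 2 residual degrees of freedom. The block is given by design, since classes share a library. P-values were adjusted by Benjamini-Hochberg over all genes, with a threshold of 0.05, and the SE was the log2 fold change divided by the square root of F. The scripts were tested on simulated data. Tissue shares were compared by 2-sided exact permutation within experiments, with Benjamini-Hochberg adjustment over 6 pairs. Intervals are Clopper-Pearson at 95% and cover counting error only. Alternatives included DESeq2 1.42.0, other scalings, no low-count filter, no block, thinned cells and leaving out a library. Named genes were the 8 largest and 8 smallest log2 fold changes per comparison (called, same direction in both libraries, at least 20 UMIs), the type 2 list and up to 4 called genes per other list, and the other genes named were chosen after their values were seen. Promoter windows came from RefSeq (GRCm38.p6).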

Additional observations from a re-analysis of the deposited data

Results flagged for a closer look

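Among 40 groups of 4 hashed samples, 3 had a sample standing apart from the other 3, where chance alone marks about 1 in 20 groups. Csf2 in ST2 conventional cells reached 625 CPM in VAT replicate 1, against at most 56.7 in the other VAT replicates. Klrg1 in ST2 conventional cells reached 113 CPM in VAT replicate 4, against at most 63.5 in the others. Without lineage cells VAT replicate 2 had 153 CPM of Klrg1, so replicate 4 then no longer stood apart. Ctla4 in CXCR6 effector cells reached 55.1 CPM in VAT replicate 1. Hashtags that the labels assign to no sample, 7 of the 15 in each table, held 4503 of 5341567 hashtag UMIs in library 1 (0.0843%) and 5747 of 6322614 in library 2 (0.0909%). The source of these counts was not tested.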

How the results depend on the processing

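The number of genes called against CXCR6 effector cells (451 of 7916 tested) was 1027 of 21833 with no low-count filter (565 higher, 462 lower). It was 226 of 7916 with DESeq2, 244 of 10766 with these 2 classes alone in the fit and 86 of 1464 in thinned cells. It was 179 of 7283 without members that had an Il2ra or Ctla4 UMI and 188 of 6158 in VAT hashed samples. It lay between 350 of 7916 and 563 of 7631 under the other settings. With no replicate block (350) 232 were higher and 118 lower. Without cells that had any UMI of 8 lineage genes (408 of 6502) 181 were higher and 227 lower. The number called against ST2 Treg cells (224 of 7916 tested) was 611 of 21833 with no low-count filter and 149 of 7916 with DESeq2. With no replicate block it was 131 of 7916 (38 higher, 93 lower). It was 119 of 6686 with these 2 classes alone, 81 of 1464 in thinned cells and 57 of 7283 without members with Il2ra or Ctla4. With Ikzf2 ignored it was 112 of 8268, and without lineage cells by 8 and by 12 genes 449 of 6502 and 461 of 7350. In VAT hashed samples it was 65 of 2201. Some log2 fold changes turned direction. Against CXCR6 effector cells Il4 was -0.19 and Ctla4 0.92 with Ikzf2 ignored. There Ctla4 was called higher (edgeR, adjusted p = 0.0455) and Il4 was not called. Areg was -6.16 and Klrg1 -0.26 without members with Il2ra or Ctla4, and Tyrobp was -1.50 in members with Cxcr6. With 1 library left out, Cd36 lay from -0.97 to 4.13 and Tyrobp from -1.11 to 6.46 against CXCR6 effector cells, and Cd36 from -3.36 to 3.22 against ST2 Treg cells. Against ST2 Treg cells Egr1 was -0.16 by 8 lineage genes, Gata3 -0.23 without members with Il2ra or Ctla4 and -0.16 in VAT hashed samples, and Ccr2 -0.26 without members with Il2ra or Ctla4, -0.018 with Ikzf2 ignored and -0.027 by 8 lineage genes. The cause was not tested. BAT minus spleen was -0.0578 points in thinned cells, and SAT minus BAT 0.121 with the strict assignment of hashtags. Leaving out an experiment gave 2.18 to 3.56 points for VAT minus spleen, 1.48 to 2.52 for VAT minus SAT, 1.93 to 3.36 for VAT minus BAT, 0.701 to 1.05 for SAT minus spleen, 0.450 to 0.847 for SAT minus BAT and 0.200 to 0.251 for BAT minus spleen, with a smallest exact p of 0.333. Leaving out a library left no residual degrees of freedom, so only log2 ratios were computed. Genes removed by the low-count filter, such as Il5 and Il13, were not tested.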
